A study of Mus musculus with 16 samples.

Results

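Histone H3 trimethylated on lysine 27 (H3K27me3) was mapped by chromatin immunoprecipitation and sequencing in late catagen hair follicle stem cells (LC-HFSCs) and in the non-stem cells sorted beside them (non-LC-HFSCs). The account covers the 17182 peaks of these 2 lists, 1909 in LC-HFSCs and 15273 in non-LC-HFSCs, out of 219698 peaks in the 12 lists analysed. Peaks of the 2 lists with 1 bp or more in common were taken as shared, and a gene was taken as marked when a peak reached to within 3000 bp of its start in mm9.

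The study has 16 samples, which are 3 histone H3 marks and an IgG background in 4 populations. LC-HFSCs were CD34+/α6-integrin+ bulge cells and non-LC-HFSCs were CD34-/α6-integrin+ cells, both from male wild-type CD1 x FVB mice at PD38 to PD44. EA-HFSCs and non-EA-HFSCs, used here only for reference, were sorted by the same markers from mice of that strain and sex at PD22 to PD25, in early anagen. The study's methods state that most of its analyses drew on mice of either sex. The labels name no treatment or genetic change in any group. Cells of 15 to 20 mice were used, and the non-HFSC gate holds a mixture, which the study describes as mostly epidermis and lower outer root sheath. Chromatin was cut to single nucleosomes with micrococcal nuclease. The reads of replicate experiments were pooled before the peaks were called, so that each population has 1 list. The comparison therefore has no replicates and was not tested. The ranges in parentheses are 95% Wilson intervals of a share, which hold counting error and no spread between animals. Read numbers were not used here. The study's methods state that LC-HFSCs had more reads than EA-HFSCs, and they give no separate number for non-LC-HFSCs. They describe H3K27me3 peak calling as short of saturation at its depth. Fewer cells carrying a mark, less of it per cell, and a difference in read number or background cannot be told apart in pooled peak lists.

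H3K27me3 is placed by the EZH1 and EZH2 enzymes of Polycomb repressive complex 2 and is bound by the CBX proteins of Polycomb repressive complex 1. It spreads over CpG-rich starts of genes for developmental regulators and is known for holding genes of other lineages silent. In skin, Polycomb enzymes are known to keep epidermal differentiation and non-epidermal programmes in check, and H3K4me3, placed at the starts of active genes, can lie beside H3K27me3 at genes that are silent but poised.

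The labels were checked against H3K4me3 at marker genes. Of 15 bulge HFSC markers, 12 had a peak in LC-HFSCs and 10 of the same 12 in non-LC-HFSCs, so that most did not tell the populations apart. The exceptions were Cd34 and Lhx2. A peak lay at the start of Cd34, the sorting marker, in LC-HFSCs (score 1735) and none lay there in non-LC-HFSCs. Lhx2, a transcription factor that maintains the bulge, likewise had an H3K4me3 peak in LC-HFSCs only (score 272). All 6 matrix and hair lineage markers had an H3K4me3 peak in both populations, and of 7 differentiated epidermis markers 3 had one in LC-HFSCs and 4 in non-LC-HFSCs. Of 5 basal epidermis and outer root sheath markers, 4 had an H3K4me3 peak in each population, Krt5, Krt14, Itgb4 and Itga3. None of 5 leukocyte markers had one in either, and of 4 endothelial markers only Kdr had one, in both. H3K4me3 peaks lay at 3 of 7 melanocyte markers in LC-HFSCs and at 2 in non-LC-HFSCs, and at 4 and 3 of 5 fibroblast markers. Itga6, which encodes the α6-integrin of both gates, had no peak of either mark within 3000 bp of its annotated start. Of the 19692 genes with no late catagen H3K27me3 mark, 56.0% had an H3K4me3 peak in LC-HFSCs and 57.9% in non-LC-HFSCs. The marker lists are short, and nothing on cell identity is read from counts near these shares. The part of other cell types in the H3K27me3 differences was not tested.

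Sequences upstream of the starts that carry the comparison are given first. Each is the 200 bases just before the annotated start, on the strand of the gene, with CpG dinucleotides in capitals. Rfx4 and Robo3 had the highest-scoring LC-HFSC peaks at a gene start, in windows covered in both lists. Tlx3 and Lbx1 were among the genes with the highest-scoring non-LC-HFSC peak and no LC-HFSC peak within 3000 bp of the start. At Tlx3 the non-LC-HFSC cover of 16411 bp was part of a shared domain. LC-HFSCs covered 2019 bp of that domain, beyond 3000 bp from the start. Vax1 had the highest-scoring peak among genes marked in LC-HFSCs only. Cd34 and Lhx2 are bulge genes shown after their values were seen.
Rfx4, chr10:84218607-84218806, + strand: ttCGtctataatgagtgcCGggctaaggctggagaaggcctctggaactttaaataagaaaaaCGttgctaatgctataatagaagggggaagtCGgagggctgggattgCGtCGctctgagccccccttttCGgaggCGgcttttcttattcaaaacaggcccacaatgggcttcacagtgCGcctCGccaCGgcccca
Robo3, chr9:37240761-37240960, - strand: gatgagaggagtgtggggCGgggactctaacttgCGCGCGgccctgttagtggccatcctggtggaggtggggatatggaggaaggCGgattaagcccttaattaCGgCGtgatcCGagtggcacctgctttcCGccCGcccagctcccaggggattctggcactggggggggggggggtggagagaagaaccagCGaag
Tlx3, chr11:33103589-33103788, - strand: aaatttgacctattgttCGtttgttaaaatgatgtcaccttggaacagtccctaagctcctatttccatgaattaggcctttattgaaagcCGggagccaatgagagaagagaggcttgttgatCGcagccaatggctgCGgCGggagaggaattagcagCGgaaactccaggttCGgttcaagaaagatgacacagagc
Lbx1, chr19:45310302-45310501, - strand: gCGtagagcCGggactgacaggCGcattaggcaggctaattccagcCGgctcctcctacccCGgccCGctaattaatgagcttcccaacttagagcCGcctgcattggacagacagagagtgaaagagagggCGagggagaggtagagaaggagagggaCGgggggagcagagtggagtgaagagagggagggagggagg
Vax1, chr19:59245627-59245826, - strand: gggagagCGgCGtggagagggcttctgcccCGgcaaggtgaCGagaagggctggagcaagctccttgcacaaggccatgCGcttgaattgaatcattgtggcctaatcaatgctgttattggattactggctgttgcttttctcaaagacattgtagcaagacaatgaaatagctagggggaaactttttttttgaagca
Cd34, chr1:196764815-196765014, + strand: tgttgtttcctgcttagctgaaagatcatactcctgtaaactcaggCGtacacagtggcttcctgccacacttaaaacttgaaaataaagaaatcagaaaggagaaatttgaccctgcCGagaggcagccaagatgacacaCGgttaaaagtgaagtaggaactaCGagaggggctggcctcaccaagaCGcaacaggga
Lhx2, chr2:38194601-38194800, + strand: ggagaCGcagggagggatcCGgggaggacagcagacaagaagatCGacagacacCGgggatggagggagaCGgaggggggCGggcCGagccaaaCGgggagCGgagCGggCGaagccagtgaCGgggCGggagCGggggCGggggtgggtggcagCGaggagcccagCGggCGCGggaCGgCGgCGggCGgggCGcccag

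The windows of Rfx4 and Robo3 held 11 CpGs each, those of Lbx1 9, Tlx3 7, Vax1 and Cd34 5 each and Lhx2 24. Over the 22362 genes with complete sequence the median was 7 (quartiles 2 and 15), so that all but Lhx2 lay within the middle range, and 8.30% of genes had at least as many as Lhx2. The Rfx4 and Robo3 windows were covered along 100% of their length by peaks of both lists, and those of Tlx3 and Lbx1 along 100% by a non-LC-HFSC peak. The Vax1 window was covered along 100% by an LC-HFSC peak. The Cd34 window lay along 100% of its length in an H3K27me3 peak of non-LC-HFSCs and in an H3K4me3 peak of LC-HFSCs. In the Lhx2 window the LC-HFSC H3K4me3 peak covered 100% and the non-LC-HFSC H3K27me3 peak 20.5%.

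The LC-HFSC list was the shorter by number and by length. It held 0.125 peaks for each non-LC-HFSC peak (0.119 to 0.131) and covered 7.41 Mb against 35.9 Mb, a ratio of 0.206. The ratio of peak numbers was below 1 on all 19 autosomes, from 0.0864 on chromosome 15 to 0.165 on chromosome 19. LC-HFSC peaks were the wider ones, with a median of 2979 bp (quartiles 2088 and 4590) against 1469 bp (1053 and 2427). The score of a peak is 10 times the negative log10 of its p-value. It depends on read number and background, so the scores of both lists are given side by side and are not read as a difference in height. Scores reached 568 in LC-HFSCs, with a median of 61.6, and 3190 in non-LC-HFSCs, with a median of 70.7. A score of 500 or more was reached by 2 LC-HFSC peaks, at Rfx4 and Robo3, and by 1095 non-LC-HFSC peaks. With only scores of at least 100 kept, the ratio of peak numbers was 0.0784 and that of lengths 0.115, and the length ratio was 0.534 for equal numbers of top-scoring peaks.

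Nearly all LC-HFSC peaks lay where non-LC-HFSCs also had one. Of the 1909 LC-HFSC peaks, 1747 overlapped a non-LC-HFSC peak (91.5%, 90.2 to 92.7) and 162 did not. In the other direction 1832 of 15273 non-LC-HFSC peaks overlapped an LC-HFSC peak (12.0%, 11.5 to 12.5) and 13441 did not. The length covered by both lists was 6.66 Mb, which is 89.9% of the LC-HFSC and 18.6% of the non-LC-HFSC length. When as many of the highest-scoring non-LC-HFSC peaks were taken as there are LC-HFSC peaks, those with a score of at least 299, the shares were 59.8% of LC-HFSC and 52.9% of non-LC-HFSC peaks.

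The overlap followed the score. Of the highest-scoring 10% of non-LC-HFSC peaks, with scores from 369 to 3190, 57.7% lay on an LC-HFSC peak (55.2 to 60.1). The share was 24.7% in the next 10%, 12.6% in the 10% after that, and 1.77% (1.22 to 2.56) in the lowest, with scores up to 43.5. In the LC-HFSC list it went from 99.0% in the highest-scoring 10% to 76.3% (69.8 to 81.8) in the lowest. Median width rose with the score, with 6126 bp in the top 10% of the non-LC-HFSC list and 928 bp in the lowest. The widest single peaks did not all score high. The widest LC-HFSC peak, over Nkx3-2, scored 53.7, and the widest non-LC-HFSC peak, over Hoxb13, scored 341.

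**Figure D1:**
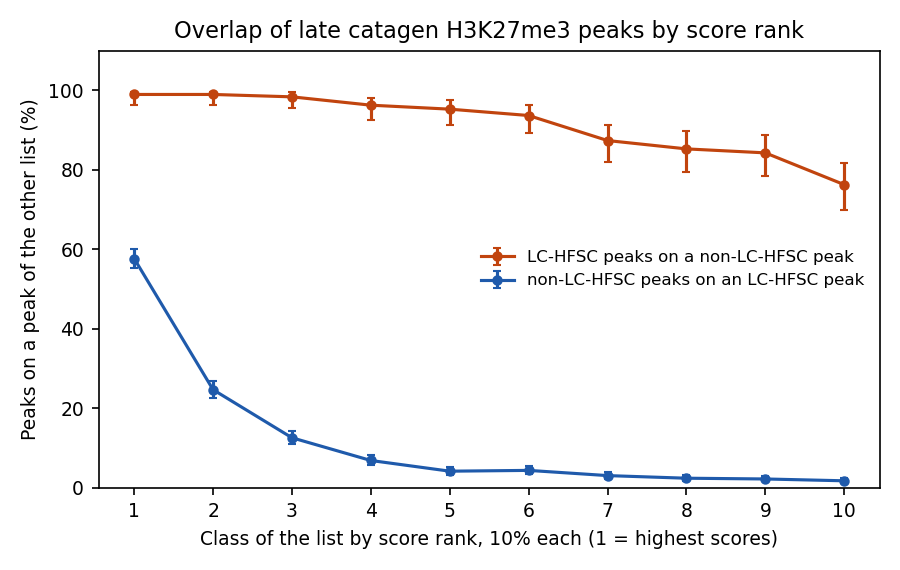
Share of peaks (%, y axis) that overlapped a peak of the other late catagen list, for each 10% of a list ranked by score (x axis, from 1 for the highest scores to 10 for the lowest), with 95% Wilson intervals as bars. LC-HFSC peaks stayed between 76.3 and 99.0%, and non-LC-HFSC peaks went from 57.7% in the top class to 1.77% in the lowest.

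Shared peaks and one-sided peaks differed in where they lay. A gene start lay inside 29.8% of non-LC-HFSC peaks that were shared and 6.96% of those that were alone, and inside 24.2% of shared and 4.32% of lone LC-HFSC peaks. Lone non-LC-HFSC peaks were mostly between genes (59.5%) or inside genes away from the start (33.6%). The ratio of observed to expected CpGs was 0.359 in shared and 0.287 in lone non-LC-HFSC peaks, 0.372 in shared and 0.238 in lone LC-HFSC peaks, and 0.191 in the genome. Shared non-LC-HFSC peaks had a median width of 3884 bp and a median score of 347, and lone ones 1369 bp and 65.0. Most of the lone LC-HFSC peaks, 85.2% (78.9 to 89.8), lay on a peak of EA-HFSCs, and 60.5% (52.8 to 67.7) on a peak of non-EA-HFSCs. Lone non-LC-HFSC peaks lay more often on a non-EA-HFSC peak (71.3%) than on an EA-HFSC peak (51.0%). The same peaks were counted against each list, and the difference between these shares was not tested. The early anagen lists are longer than the LC-HFSC list, with 25534 peaks in EA-HFSCs and 17488 in non-EA-HFSCs. By covered length non-EA-HFSCs had more, 68.3 Mb against 58.2 Mb in EA-HFSCs. Their peaks were also wider, with a median of 2612 bp against 1381 bp. The part of list length and peak width in these shares was not tested.

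The 10 highest-scoring LC-HFSC peaks were described one by one. The first covered the start of Rfx4, a transcription factor of brain development (score 568, 9622 bp, against 15620 bp in non-LC-HFSCs). The next covered the start of Robo3, an axon guidance receptor (523, 7465 bp against 6837 bp). The third covered Tbr1, a T-box factor of cortical neurons (433, 9625 bp against 13427 bp). Further down the 10 were Tmem132e (388), Cbln1, which encodes a synaptic organiser (380), a peak 15431 bp from Evx1 (376), one in Arhgap26 (346), one 11692 bp from Zfhx3 (345), Alx1 (339) and Ebf3 (334). All 10 overlapped a peak of non-LC-HFSCs and of each early anagen population, and none overlapped an H3K4me3 peak of LC-HFSCs. At 5 of the 10, Rfx4, Tbr1, Cbln1, Alx1 and Ebf3, the peak overlapped an H3K4me3 peak of non-LC-HFSCs. Of all 1747 shared LC-HFSC peaks, 15.1% overlapped an H3K4me3 peak of LC-HFSCs and 19.2% one of non-LC-HFSCs. An EA-HFSC peak was overlapped by 96.2% of them and a non-EA-HFSC peak by 95.1%. With 10 peaks picked by score, nothing is read from these counts.

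The 10 highest-scoring non-LC-HFSC peaks with no LC-HFSC peak reached the top of their list, where several peaks are tied in score. They were at Gm5607 (score 3104), at Onecut2, Lbx1, Lhx8, Foxd2, Barhl2 and Skor1 (3100 each), 25575 bp from Fcgr1 (3100), at Fezf2 (3082) and over Hoxa10 and Hoxa11 (3064). Lbx1 directs limb muscle precursors and spinal neurons, Barhl2 and Fezf2 are factors of neurons, and Lhx8 of basal forebrain neurons. LC-HFSC peaks that do not touch these ones lay within 3000 bp of the starts of Onecut2 (score 137), Lhx8 (107) and Skor1 (53.1), so that as genes these counted as marked in both. Each of the 10 overlapped an EA-HFSC peak and all but the one at Foxd2 a non-EA-HFSC peak, against 51.0% and 71.3% of all lone non-LC-HFSC peaks. The widest non-LC-HFSC peak of all, 62399 bp over the start of Hoxb13, had no LC-HFSC peak. The widest LC-HFSC peak, 22980 bp over Nkx3-2, lay on a non-LC-HFSC peak of 27173 bp.

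The lone LC-HFSC peaks were few and low in score. The highest was at Vax1, a homeobox factor of the ventral forebrain and eye (score 244, 14508 bp), and a second lone peak of 5246 bp lay 3836 bp from its start (score 100). The others of the 10 were in Zfp568 (192), 110219 bp from Smad6 (138), over Hoxc12 (125, 13017 bp), 44414 bp from Tsc22d1 (101), 13700 bp from Lmx1a (94.0), 38141 bp from Sfmbt2 (82.1), 3371 bp from Megf10 (79.4) and in Abcc8 (77.3). All but the one in Zfp568 overlapped an EA-HFSC peak, and all but those in Zfp568 and at Hoxc12 a non-EA-HFSC peak. Of all lone LC-HFSC peaks 85.2% and 60.5% did.

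Overlapping peaks of both lists were joined into 1553 shared domains, and the LC-HFSC cover was the shorter in most of them. Its median was 3303 bp (quartiles 2265 and 5285) against 4732 bp (3014 and 7772) in non-LC-HFSCs. Non-LC-HFSCs covered more at 1250 domains (80.5%, 78.4 to 82.4), LC-HFSCs at 302, and 1 was equal. The median log2 ratio of LC-HFSC to non-LC-HFSC cover was -0.33 (quartiles -0.75 and -0.07). In 258 domains the LC-HFSC cover was at most 50% of the other, and in 29 it was at least double. In all, LC-HFSCs covered 7.06 Mb and non-LC-HFSCs 10.3 Mb of these domains, while EA-HFSCs covered 9.82 Mb and non-EA-HFSCs 10.1 Mb of them.

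At the 1177 domains made of 1 peak of each list, the LC-HFSC peak lay inside the non-LC-HFSC peak at 642 (54.5%), the reverse held at 101 (8.58%), and at 434 (36.9%) each reached past the other at 1 end. Counted by peaks, 215 domains had 1 LC-HFSC peak and several of non-LC-HFSCs, and 118 had several LC-HFSC peaks and 1 of non-LC-HFSCs. The difference in length went with the width of the domain. Where the non-LC-HFSC cover was 2 to 5 kb (661 domains) the median log2 ratio was -0.30, at 5 to 10 kb (476) -0.49, at 10 to 20 kb (195) -0.45 and at 20 kb or more (67) -1.52. At all 67 of the widest domains non-LC-HFSCs covered more, with medians of 8866 bp in LC-HFSCs and 27173 bp in non-LC-HFSCs. Below 2 kb (154 domains) the median was 0.40. Because the classes were cut on the non-LC-HFSC cover itself, part of this order follows from the choice.

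The widest shared domain was at Pax2, a regulator of kidney and eye development, on chromosome 19 from 44796986 to 44846628. There 1 LC-HFSC peak of 5019 bp lay in a non-LC-HFSC peak of 49643 bp, a log2 ratio of -3.31, and that LC-HFSC peak lay beyond 3000 bp from the start. At Hand2, a factor of heart and limb development, 3 LC-HFSC peaks covered 17752 bp of 48490 bp (-1.45). At Hoxa13 they covered 18403 of 44006 bp (-1.26), at Uncx 16128 of 42606 bp (-1.40), and at Evx2 with Hoxd9 to Hoxd13 26803 of 42361 bp (-0.66). In each of these 5 domains EA-HFSCs covered at least 42484 bp. Non-EA-HFSCs covered between 42606 and 49588 bp of the first 4 and none of the Evx2 and Hoxd domain.

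Among shared domains of at least 2 kb in each list, the most shortened included Hlx, with 2549 bp in LC-HFSCs and 32445 bp in non-LC-HFSCs (log2 ratio -3.67), then Tal1, the master factor of blood formation, with 2000 and 23071 bp (-3.53), Pax2, and the cardiac factor Nkx2-5 with 3967 and 35868 bp (-3.18). The domains with the longest LC-HFSC cover for their non-LC-HFSC cover were much smaller. They lay 110638 bp from Pmp22 (3732 against 2095 bp), in Arpp21 (3585 against 2015 bp), in Fam19a5 (4428 against 2519 bp), 57289 bp from Scn8a (4892 against 2833 bp) and 12778 bp from Pkdcc (3416 against 2051 bp), with log2 ratios from 0.74 to 0.83.

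**Figure D2:**
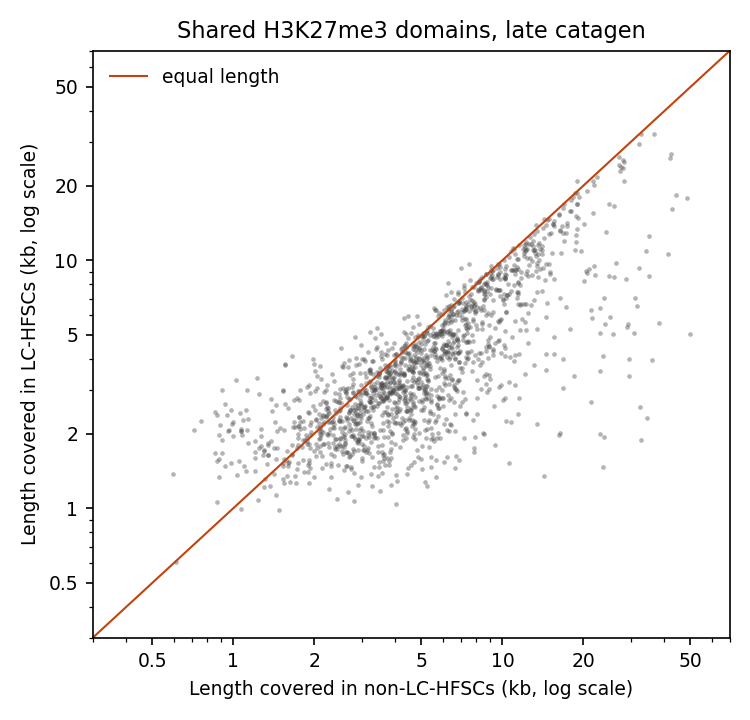
Length covered by LC-HFSC peaks (kb, y axis, log scale) against length covered by non-LC-HFSC peaks (kb, x axis, log scale) in each of the 1553 shared domains, 1 point per domain, with the line of equal length. Of the points, 1250 lie on the non-LC-HFSC side of the line, and all 67 at 20 kb or more do.

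At gene starts the LC-HFSC set was almost wholly inside the non-LC-HFSC set. Of 22367 protein-coding genes, 758 were marked in LC-HFSCs (3.39%) and 2663 in non-LC-HFSCs (11.9%). Both lists marked 746 genes (3.34%), non-LC-HFSCs alone 1917 (8.57%) and LC-HFSCs alone 12 (0.0537%). So 98.4% of LC-HFSC genes (97.3 to 99.1) were also marked in non-LC-HFSCs, and 28.0% of non-LC-HFSC genes (26.3 to 29.7) in LC-HFSCs. The share was 3.64% of the 769 genes whose non-LC-HFSC peak scored under 100, 24.2% of the 1172 from 100 to 500 and 60.1% of the 722 at 500 or more. It was 12.6% of genes when both lists were limited to scores of at least 100 and 53.1% at equal numbers of top-scoring peaks. EA-HFSCs marked 2918 genes (13.0%) and non-EA-HFSCs 3480 (15.6%).

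The 12 genes marked in LC-HFSCs alone were Vax1 (score 244), 1700067P10Rik (231), Hoxc12 (125), Accn1 (53.6), Gpr139 (52.2), E330009J07Rik (49.4), Cntn1 (47.6), Gap43 (45.3), Olfr1411 (44.7), Tmem215 (42.7), D630029K05Rik (42.5) and Pkdcc (40.9). Gap43 is a growth cone protein and Cntn1 an adhesion molecule of axons. For 1700067P10Rik and E330009J07Rik the nearest non-LC-HFSC peak lay 3354 and 3041 bp from the start, just outside the window. For Cntn1 it lay 269231 bp away and for Gap43 182373 bp. EA-HFSCs marked 10 of the 12, all but 1700067P10Rik and D630029K05Rik. Non-EA-HFSCs also marked 10 of the 12, all but Hoxc12 and Gap43.

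The genes marked in both lists were marked in early anagen too. EA-HFSCs marked 98.5% of them and non-EA-HFSCs 98.1%. Of the genes marked in non-LC-HFSCs alone, EA-HFSCs marked 70.5% (68.4 to 72.5) and non-EA-HFSCs 90.6% (89.2 to 91.8). Among those 1917 genes, 461 (24.0%) were also marked in non-EA-HFSCs and not in EA-HFSCs, so that they were one-sided toward the non-HFSCs at both stages. In the 20 kb around the start of the genes marked in both lists, LC-HFSC peaks covered a median of 4312 bp (quartiles 2776 and 7620) and non-LC-HFSC peaks 8559 bp (5378 and 13329). The start itself lay in a peak at 58.7% of these genes in LC-HFSCs, 79.9% in non-LC-HFSCs, 87.8% in EA-HFSCs and 92.9% in non-EA-HFSCs.

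**Figure D3:**
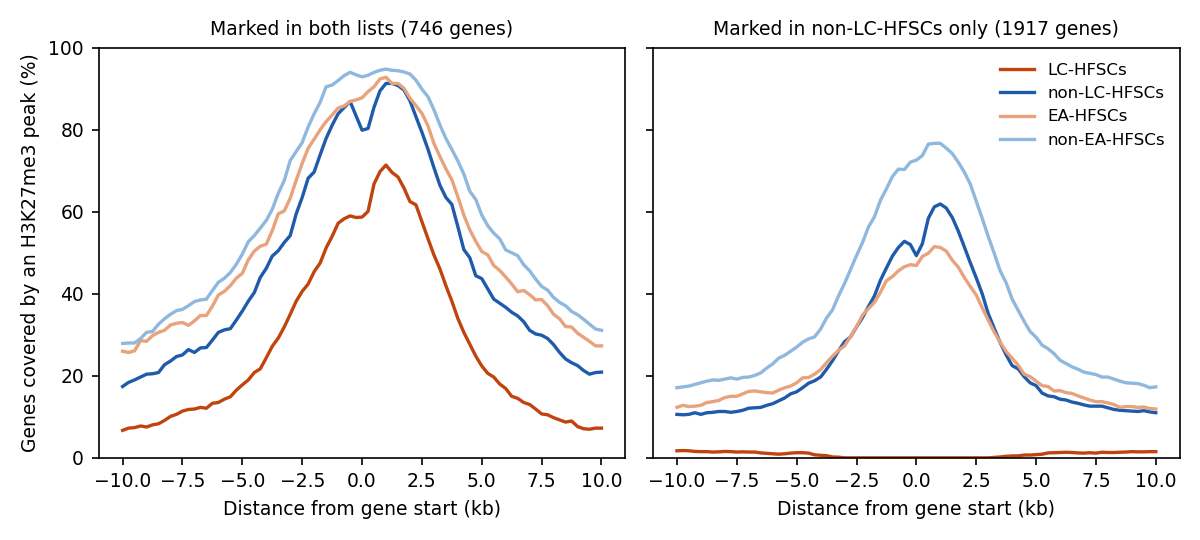
Share of genes (%, y axis) with an H3K27me3 peak over each position from 10 kb before to 10 kb after the gene start (x axis, kb), for the 746 genes marked in both late catagen lists (left) and the 1917 marked in non-LC-HFSCs only (right). Lines are the 4 populations, and at the starts on the left the LC-HFSC line stands at 58.7% and the non-LC-HFSC line at 79.9%. On the right the LC-HFSC line is 0 around the start by the choice of genes, and the EA-HFSC line stands at 46.9%.

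The share of genes with H3K4me3 was lower among those marked in both lists than among those marked in non-LC-HFSCs alone. The difference was not tested, and these classes also differ in non-LC-HFSC score. In LC-HFSCs an H3K4me3 peak lay at 30.0% (26.8 to 33.4) of genes marked in both lists. The share was 42.1% (39.9 to 44.3) of genes marked in non-LC-HFSCs alone and 56.0% of genes marked in neither. In non-LC-HFSCs the shares were 39.5% (36.1 to 43.1), 50.3% (48.1 to 52.5) and 57.9%. H3K9me3 of non-LC-HFSCs lay at 27.7% of the genes marked in both, 14.6% of those marked in non-LC-HFSCs alone and 10.7% of those marked in neither. LC-HFSC H3K9me3 peaks were at no more than 0.536% of any of these classes. The median ratio of observed to expected CpGs within 500 bp of the start was 0.661 in genes marked in both, 0.614 in those marked in non-LC-HFSCs alone, 0.429 in the 12 and 0.520 in those marked in neither.

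The families of developmental transcription factors had a higher share of marked members than all genes in each list. Family members were counted once per symbol. The shares of all genes to set beside each family are 3.34% marked in both lists and 8.57% in non-LC-HFSCs alone. Of 44 LIM, Nkx, Dlx, Irx and sine oculis homeobox genes, which pattern neural, muscle and craniofacial tissue, 20 were marked in both lists, 20 in non-LC-HFSCs alone and 4 in neither. The highest LC-HFSC scores among them were at Lmx1a (296), Nkx2-6 (247), Lhx5 (163) and Nkx2-2 (153). Of 30 neural and muscle bHLH genes, 15 were marked in both and 7 in non-LC-HFSCs alone, with Hand2 (307), Atoh1 (283) and Bhlhe22 (248) among the highest in LC-HFSCs. Myod1, the muscle determination factor, was marked in non-LC-HFSCs (score 942) and not in LC-HFSCs, and so was the neuronal factor Neurod1 (1588).

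Of 17 T-box genes, 8 were marked in both lists, with Tbr1 (433), Tbx20 (322) and Tbx2 (169) first, and 4 in non-LC-HFSCs alone, which were Tbx4, Tbx15, Eomes and Tbx1. Forkhead genes gave 15 in both and 8 in non-LC-HFSCs alone of 43, led in LC-HFSCs by Foxl2 (253), a factor of the ovary, and Foxa1 (168), of the endoderm. Of the 9 Pax genes all were marked in non-LC-HFSCs and only Pax9 (115) and Pax1 (72.5) in LC-HFSCs. Genes unmarked at the start can have LC-HFSC cover further off, as in shared domains near Tbx4 (5533 bp) and Pax3 (9135 bp). Of 18 Sox genes, Sox17 (171) and Sox18 (135), factors of endoderm and vessels, were marked in both, and 10 others in non-LC-HFSCs alone. The interval of the Sox share in LC-HFSCs, 11.1% (3.10 to 32.8), holds the 3.39% of all genes. Gata6 (198) and Gata3 (51.3) were marked in both among 6 Gata genes, and Gata2, Gata4 and Gata5 in non-LC-HFSCs alone.

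The 4 Hox clusters differed from each other. Non-LC-HFSC peaks covered 99.1% of HoxD, 48.4% of HoxB, 36.6% of HoxA and 7.10% of HoxC. LC-HFSC peaks covered 26.2% of HoxD, 2.72% of HoxA, 11.2% of HoxC and none of HoxB. HoxC was the only cluster with more cover in LC-HFSCs, from the lone peak over Hoxc12, and in early anagen it was covered to 48.4% in EA-HFSCs and 7.17% in non-EA-HFSCs. HoxB, with no LC-HFSC peak, was covered to 51.1% in EA-HFSCs. Of the 39 Hox genes, 7 were marked in both lists, 12 in non-LC-HFSCs alone and 1, Hoxc12, in LC-HFSCs alone. The shares of all genes in these classes were 3.34%, 8.57% and 0.0537%. Hoxd11, Hoxd12 and Hoxd13 lay under the same LC-HFSC peak (330) and so are not separate observations.

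**Figure D4:**
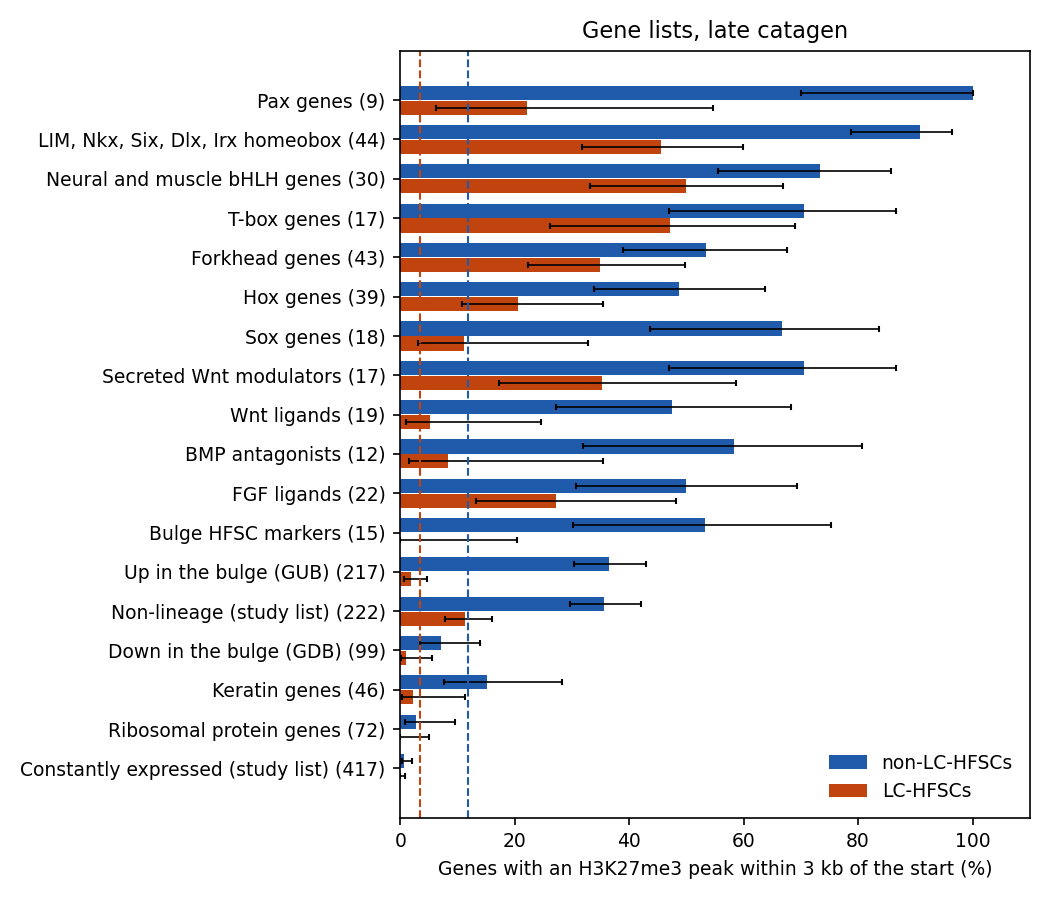
Share of the genes of each list (%, x axis) with an H3K27me3 peak within 3 kb of the start in non-LC-HFSCs and LC-HFSCs, with 95% Wilson intervals as bars, list sizes in parentheses, and dashed lines at the shares of all genes (3.39% in LC-HFSCs and 11.9% in non-LC-HFSCs). The homeobox, bHLH and T-box lists are above these lines in both populations, and the genes upregulated in the bulge stand at 36.4% in non-LC-HFSCs and 1.84% in LC-HFSCs.

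Genes of the bulge stem cells themselves were among those marked in non-LC-HFSCs. Of 15 bulge HFSC markers, 8 were marked in non-LC-HFSCs, where 11.9% of all genes were, and none in LC-HFSCs, where 3.39% were. With 15 genes, none is near that share and nothing is read from it. The 8 were Lhx2 (score 1265), Sox9, which is needed to form the bulge (350), Tbx1, a T-box factor of HFSC self-renewal (323), Foxc1, a factor of HFSC quiescence (256), Lgr5 (205), the Wnt pathway repressor Tcf7l1 (137), Cd34 (120) and Nfib (54.6). LC-HFSCs had an H3K4me3 peak at 7 of the 8, all but Nfib, and non-LC-HFSCs at 5, all but Nfib, Cd34 and Lhx2. Among all genes marked in non-LC-HFSCs alone, 42.1% had one in LC-HFSCs and 50.3% in non-LC-HFSCs. The same markers gave 0 of 15 in EA-HFSCs and 9 in non-EA-HFSCs, against 13.0% and 15.6% of all genes. Of the 8, 7 were marked in non-EA-HFSCs also, all but Tcf7l1. Krt15, Gas1, Col17a1, Nfatc1 and Itga6 had no H3K27me3 peak in any of the 4 populations, and Cd200 and Runx1 had one in non-EA-HFSCs only.

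**Figure D5:**
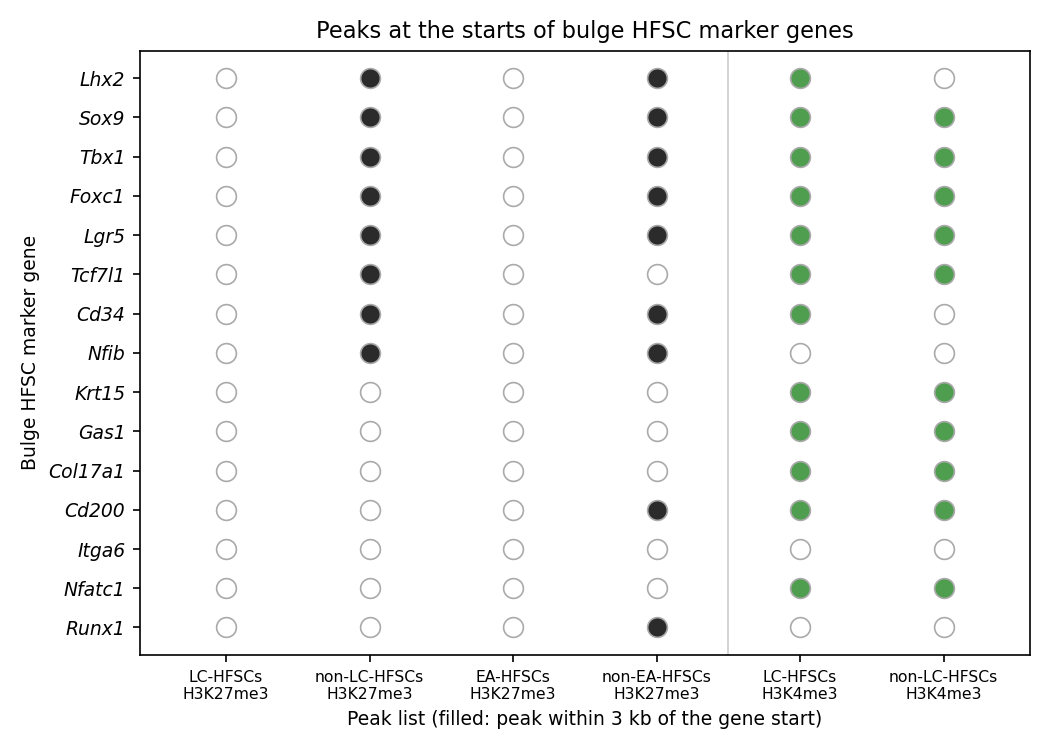
Presence (filled) or absence (open) of a peak within 3 kb of the start of each of 15 bulge HFSC marker genes (rows, ordered by non-LC-HFSC score) in the H3K27me3 lists of the 4 populations and the H3K4me3 lists of the late catagen populations (columns). The columns of LC-HFSCs and EA-HFSCs for H3K27me3 are empty, and 8 and 9 genes are filled in the non-LC-HFSC and non-EA-HFSC columns.

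The list of genes upregulated in the bulge (GUB), which the study drew from earlier mRNA arrays, holds 8 of the 15 bulge markers, 6 of them marked in non-LC-HFSCs, and is no separate evidence for these. Of its 217 matched members, 79 (36.4%, 30.3 to 43.0) were marked in non-LC-HFSCs and 4 (1.84%, 0.719 to 4.64) in LC-HFSCs. All genes gave 11.9% and 3.39%. Without the 8 bulge markers, 73 of 209 (34.9%) and 4 (1.91%) were marked. The 4, all marked in both, were Crabp1 (LC-HFSC score 75.6), Hoxd8 (62.4), Mfge8 (59.0) and Fyn (43.7). Among the 75 marked in non-LC-HFSCs alone, the highest scores were at Lhx2 (1265), Hoxc13, a factor of hair differentiation (1156), Klhl22 (1135) and the BMP antagonist Grem1 (735). The GUB share also marked in LC-HFSCs was set beside that of all genes by score class of the non-LC-HFSC peak. Under 100 it was 0 of 29 (0 to 11.7), near the 3.64% of all genes, and nothing is read from it. It was 1 of 37 (2.70%, 0.479 to 13.8) from 100 to 500, against 24.2% of all genes. At 500 or more it was 3 of 13 (23.1%, 8.18 to 50.3), against 60.1%. When only the highest-scoring non-LC-HFSC peaks were kept, as many as there are LC-HFSC peaks, 22 GUB genes and 3 bulge markers were marked in non-LC-HFSCs, and with scores of at least 100 in both lists 50 and 7 were.

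In early anagen the GUB genes marked were 102 (47.0%) in non-EA-HFSCs and 18 (8.29%) in EA-HFSCs, against 15.6% and 13.0% of all genes. Of the 75, 55 (73.3%) were marked in non-EA-HFSCs and not in EA-HFSCs, where 24.0% of all genes marked in non-LC-HFSCs alone were. Of the 75, 63 had an H3K4me3 peak in both late catagen populations, 7 in LC-HFSCs alone, 1 in non-LC-HFSCs alone and 4 in neither. Among all 1917 genes marked in non-LC-HFSCs alone, the same states held 738, 69, 226 and 884. Of the 99 genes downregulated in the bulge, 7 (7.07%) were marked in non-LC-HFSCs and 1, Ets1 (60.7), in LC-HFSCs. Sox6 (590) and Cux1 (523) led the 6 of them marked in non-LC-HFSCs alone, and both early anagen populations marked all 6. Of the 99, EA-HFSCs marked 24 (24.2%) and non-EA-HFSCs 12 (12.1%), against 13.0% and 15.6% of all genes. Of 417 constantly expressed genes, 3 were marked in non-LC-HFSCs and none in LC-HFSCs, and of 222 non-lineage genes 79 (35.6%) and 25 (11.3%). The GUB and non-lineage shares were thus close in non-LC-HFSCs and apart in LC-HFSCs, with intervals of 0.719 to 4.64% and 7.75 to 16.1%. This difference was not tested.

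Signalling genes were marked mainly at ligands and secreted modulators. Of all genes, 3.34% were marked in both lists and 8.57% in non-LC-HFSCs alone. Of 19 Wnt ligands, 9 were marked in non-LC-HFSCs and only Wnt1 in LC-HFSCs (131). Of 18 genes listed as Frizzled receptors and co-receptors, 2 were marked in non-LC-HFSCs, Ror2 (1034) and Lgr5, and none in LC-HFSCs. That share in non-LC-HFSCs, 11.1%, is near the 11.9% of all genes. Of 17 secreted Wnt modulators, 6 were marked in both, led by Sost (182), Frzb (83.5) and Dkk1 (79.9), and 6 in non-LC-HFSCs alone, Rspo1 (1196) first. Bmp8b, Gdf7 and Gdf6 were marked in both among 27 BMP and GDF ligands, and 9 in non-LC-HFSCs alone with Bmp6 (718) highest. Of 12 BMP antagonists only Chrdl2 (63.3) was marked in both, and Grem1, Chrd, Nog, Fst, Chrdl1 and Bambi in non-LC-HFSCs alone. Of 12 BMP and activin receptors only Acvr1c (45.1, non-LC-HFSCs alone) was marked, and of 5 FGF receptors none.

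Of 22 FGF ligands, 6 were marked in both, with Fgf8 (152), Fgf15 (106), Fgf17 (106) and Fgf4 (87.5) highest, and 5 in non-LC-HFSCs alone. Within the Hedgehog pathway the ligands Shh (243) and Ihh (41.9) and the inhibitor Hhip (56.0) were marked in both lists, out of 13 genes. Dhh, the receptor Ptch1 and the effector Gli2 were marked in non-LC-HFSCs alone, and none of these 3 was marked in EA-HFSCs while all 3 were in non-EA-HFSCs. Among 8 CDK inhibitors, Cdkn2a (199) and Cdkn2b (50.5), classical Polycomb targets that restrain the cell cycle, were marked in both lists and the other 6 in neither.

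Among other genes of skin, none of 7 differentiated epidermis markers was marked in either list, and of 5 basal markers only Itga3 (52.5, non-LC-HFSCs alone). Of 6 matrix and hair lineage markers, Shh and Gata3 were marked in both and Lef1 (1884), Hoxc13 and Msx2 (49.5) in non-LC-HFSCs alone. Of 46 keratin genes, Krt8 (84.0), a simple-epithelium keratin, was marked in both and 6 in non-LC-HFSCs alone, Krt18 (452) first. Of 26 genes of Polycomb and H3K27 methylation enzymes, Phc1 (51.8) was marked in both and, among others, Cbx8 (341) and Bmi1 (57.7) in non-LC-HFSCs alone. The Polycomb shares were 3.85% in LC-HFSCs and 15.4% in non-LC-HFSCs, and the keratin shares 2.17% and 15.2%. These are near the 3.39% and 11.9% of all genes, and nothing is read from them. Markers of other cells were counted too, and these lists, like the epidermis and matrix ones, are too short to set against the shares of all genes. Sox10 and Kit of 7 melanocyte markers and Cd3e and Cd207 of 5 leukocyte markers were marked in non-LC-HFSCs alone. Kdr of 4 endothelial markers was marked in both, and 4 of 5 fibroblast markers in non-LC-HFSCs, of which Twist2 and Vim in LC-HFSCs also.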

How the data were processed

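Peak lists of 8 of the 12 combinations of population and mark were used, and the early anagen H3K4me3 and H3K9me3 lists were not used here. The authors trimmed single-end reads (Trimmomatic 0.22 per the submitters' processing notes), aligned them to mm9 with Bowtie2, pooled replicate experiments and, with IgG of each population as control, ran MACS 1.4. Each list as deposited holds positions and a score given by MACS (the -log10 p-value multiplied by 10), and the p-value limit was 0.0001. Read numbers are not in the lists, and the read ranges in the study's methods are not given per list, so the depth behind each list is not known here.

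Overlaps, covered lengths and gene marks came from scripts in Python 3.11.15 (numpy 2.4.6), which were tested on simulated peaks. Counts of overlapping peaks equalled those of bedtools 2.31.1. Genes were the 22367 protein-coding genes of GENCODE vM1 on NCBIM37, the assembly of mm9, and the marked gene took its highest-scoring peak within 3000 bp. The 25 peaks on unplaced sequence entered peak numbers and overlaps only. Sequences were read from NCBIM37.

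The gene families, markers and pathways are lists of textbook symbols, all of which matched, and 4 lists came from the study (GUB 217 of 220, downregulated 99 of 99, constantly expressed 417 of 421, non-lineage 222 of 233). The regions, lists and rules were chosen with earlier results of these data known. The peaks named were the 10 highest-scoring of each class. The domains named were the 5 widest and the 5 with the highest and the lowest ratio among those of at least 2 kb in each list. In the gene lists the members of highest score were named, 4 of each class. Members named beyond these, as in the bulge, Hedgehog and BMP lists, were chosen after their values were seen. A few genes that these rules name are not reported here.

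Groups came from the sample labels. Alternatives were scores of at least 50 and 100, the 19 autosomes, peaks under 1 kb apart merged, an overlap reaching 50% of the counted peak, equal numbers of top-scoring peaks, domains of 1 peak of each list, windows of 2500 and 1000 bp, and any transcript start.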

Additional observations from a re-analysis of the deposited data

Results flagged for a closer look

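The ratio of HFSC to non-HFSC peak numbers lay on opposite sides of 1 at the 2 stages. In late catagen it was 0.125 (0.119 to 0.131) and in early anagen 1.46 (1.43 to 1.49). The covered lengths gave 0.206 and 0.853, both below 1. There is 1 list per population and stage, and the difference between the stages was not tested.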

How the results depend on the processing

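With scores of at least 50 and of at least 100, the ratio of peak numbers was 0.118 and 0.0784, that of covered lengths 0.189 and 0.115, the share of LC-HFSC peaks on a non-LC-HFSC peak 94.9% and 97.6%, and the share of non-LC-HFSC genes also marked in LC-HFSCs 24.5% and 12.6%. A score of at least 100 also gave 7.92% of non-LC-HFSC peaks on an LC-HFSC peak, 83.2% of shared domains longer in non-LC-HFSCs, 24.7% of the genes marked in both with LC-HFSC H3K4me3, and 50 GUB and 4 downregulated genes marked in non-LC-HFSCs. With near peaks merged, the ratio of peak numbers was 0.147, that of lengths 0.201, and 87.6% of shared domains were longer in non-LC-HFSCs, and the autosomes gave a length ratio of 0.206. An overlap of 50% gave 87.9% and 9.25% of peaks on the other list, and 44.7% for the highest-scoring 10% of non-LC-HFSC peaks. With equal numbers of top-scoring peaks the length ratio was 0.534, the shares of peaks 59.8% and 52.9%, the domains longer in non-LC-HFSCs 86.1% and the genes also marked in LC-HFSCs 53.1%. This alternative keeps only non-LC-HFSC scores of at least 299, which left 22 GUB genes, 3 bulge markers and 3 downregulated genes marked in non-LC-HFSCs, against 79, 8 and 7. A window of 1000 bp gave 25.8% and any transcript start 35.1% of the genes marked in both with LC-HFSC H3K4me3. The ratios of number and length stayed below 1 and the share of domains longer in non-LC-HFSCs above 50% in all alternatives that were run. Equal numbers give no ratio of peak numbers. No paired analysis was possible because each population has 1 list of pooled replicates.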

Other observations

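Lists of channels, receptors, transporters and matrix genes were counted in the same way. Of all genes, 3.34% were marked in both late catagen lists and 8.57% in non-LC-HFSCs alone. Of 92 potassium channel genes, 17 were marked in both late catagen lists and 29 in non-LC-HFSCs alone, with Kcna2 (166), Kcnj5 (115), Kcnc1 (115) and Kcna1 (105) highest in LC-HFSCs. Of 88 neurotransmitter receptor genes, 11 were marked in both, Htr5b (106) first, and 33 in non-LC-HFSCs alone. In early anagen the shares were 56.5% and 54.5% in EA-HFSCs and 62.0% and 55.7% in non-EA-HFSCs, against 13.0% and 15.6% of all genes. Of 43 collagen genes, Col2a1 (283), the collagen of cartilage, Col9a2 (68.2) and Col13a1 (59.0) were marked in both and 13 in non-LC-HFSCs alone. Of 327 solute carrier genes, 17 were marked in both, led by the glycine transporter Slc6a5 (190), and 45 in non-LC-HFSCs alone, and the share in LC-HFSCs was 5.20% against 3.39% of all genes. Of 1087 olfactory receptor genes, 14 were marked in non-LC-HFSCs and 1, Olfr1411, in LC-HFSCs, and of 72 ribosomal protein genes 2, Rpl26 and Rpl38, and none.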
